A study of Mus musculus with 6 samples.

Results

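The annexins described here are the 10 genes Anxa1, Anxa2, Anxa3, Anxa4, Anxa5, Anxa6, Anxa7, Anxa8, Anxa10 and Anxa13, chosen by gene symbol among the 49585 genes counted in tumoroids, which are adenoma cells grown in Matrigel. Knock-out tumoroids carried IKKa FL/FL alleles and wild-type tumoroids IKKa +/+, both on APC min/+ with Villin-Cre, and 3 libraries were made of each. Both came from intestinal adenoma cells of the C57BL/6 strain, so Cre and the Apc mutation were present on both sides of the comparison, and the mice's age is not given in the sources used here. Villin-Cre is active in the intestinal epithelium, and the medium held Noggin, R-spondin, EGF, basic FGF and a ROCK inhibitor. The comparison addresses how expression in the tumour cells differed with the floxed alleles of Chuk, the gene that codes for IKKa, a kinase upstream of NF-kB.

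Annexins are cytosolic proteins that bind acidic phospholipids, such as phosphatidylserine, when calcium rises. They share a folded core that lies on the membrane, and differ in a short N-terminal tail to which partners such as S100 proteins bind. In epithelia they are known for sealing torn plasma membrane, for vesicle traffic and secretion, for holding plasminogen and its activator at the cell surface and, for annexin A1, for signalling through formyl peptide receptors.

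The libraries held 20749747 to 31875723 counts each. Chuk stood at 28.85, 24.4 and 34.9 CPM (reads relative to library size, TMM-scaled) in the knock-out libraries and at 101, 106 and 95.7 CPM in the wild-type libraries, lower in knock-out tumoroids with an edgeR adjusted p of 8.6e-08. The genotypes also differed in sex: Xist, expressed from the inactive X, had 6 counts in knock-out tumoroids and 95406 in wild-type tumoroids, and the Y-linked Ddx3y had 4502 counts in knock-out tumoroids and 0 in wild-type tumoroids, so genotype and sex cannot be told apart. Epithelial markers were present in every library, with 6 genes summing to 10150 to 11930 CPM in knock-out tumoroids and 7543 to 8139 CPM in wild-type tumoroids, and of these 3 keratin genes were called higher, Epcam and Cldn7 lower, and Cdh1 was not called. Epcam averaged 411 ± 12.9 CPM in knock-out tumoroids and 915 ± 30.6 CPM in wild-type tumoroids. The 6 intestinal markers summed to 2265 to 2525 CPM in knock-out tumoroids and 3709 to 3941 CPM in wild-type tumoroids. Of them, 5 were called lower, against 27.0% of all genes tested. Cdh17 was not called, at 739 ± 60.3 CPM in knock-out tumoroids and 813 ± 32.1 CPM in wild-type tumoroids. The intestinal factor Cdx1 had 0 counts in knock-out tumoroids and 495 in wild-type tumoroids. Markers of other cell types were low but not equal. The 5 endothelial genes summed to 0.299 to 0.442 CPM in knock-out tumoroids and 9.93 to 14.5 CPM in wild-type tumoroids, mostly Tek (25 counts in knock-out tumoroids and 941 in wild-type tumoroids), with Kdr and Emcn at 0 in all libraries. The 4 smooth muscle genes summed to 0.187 to 0.474 CPM in knock-out tumoroids and 9.13 to 18.2 CPM in wild-type tumoroids, mostly Acta2. The 4 mast cell genes summed to 1.58 to 2.47 CPM in knock-out tumoroids and 3.08 to 7.70 CPM in wild-type tumoroids, with 1 called higher and 1 lower. Mcpt4 rose (166 counts in knock-out tumoroids and 0 in wild-type tumoroids) and Kit fell (1 count in knock-out tumoroids and 376 in wild-type tumoroids). Cpa3 and Tpsb2 were at 0 in all libraries. The 7 fibroblast genes summed to 0.452 to 0.884 CPM in knock-out tumoroids and 0 to 0.339 CPM in wild-type tumoroids. Of these, Col1a1 was called higher (59 counts in knock-out tumoroids and 2 in wild-type tumoroids). Pdgfra, not tested, went the other way (0 counts in knock-out tumoroids and 13 in wild-type tumoroids), and Col3a1, Dcn, Lum and Pdgfrb were at 0 in all libraries. The 8 leukocyte genes summed to 113 to 132 CPM in knock-out tumoroids and 37.4 to 46.6 CPM in wild-type tumoroids, mostly Cd14, and the 3 tested (Cd14, Cd68 and Ptprc) were higher, with Cd3e and Adgre1 at 0 in all libraries. The part of these cells in the annexin values was not tested. Whether replicates came from separate mice or separate cultures is not stated in the labels, which call them biological, so p-values cover the scatter among these 6 libraries only, and part of it may be technical.

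Annexin transcripts were more abundant in knock-out tumoroids, and 9 of the 10 genes rose (edgeR's quasi-likelihood method, p adjusted by Benjamini-Hochberg over the 13759 genes tested, threshold 0.05). Among all genes tested, 57.4% were called, 30.4% higher and 27.0% lower, so calls were frequent in this comparison. Anxa1 was the gene without a call and 0 annexins of the 10 fell. All 10 passed the filter on low counts. The rise was at least 2-fold for 7 members, against 15.2% of all genes tested, and above 8-fold for Anxa8 and Anxa6. The median log2 fold change was 1.73 over the 10 annexins and 0.0022 over all genes tested. In 9 annexins every knock-out library lay above every wild-type library, a separation found in 32.7% of all genes tested, or 63.1% in either direction. In these bulk libraries, fewer cells of a type and less RNA per cell cannot be told apart.

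**Figure D1:**
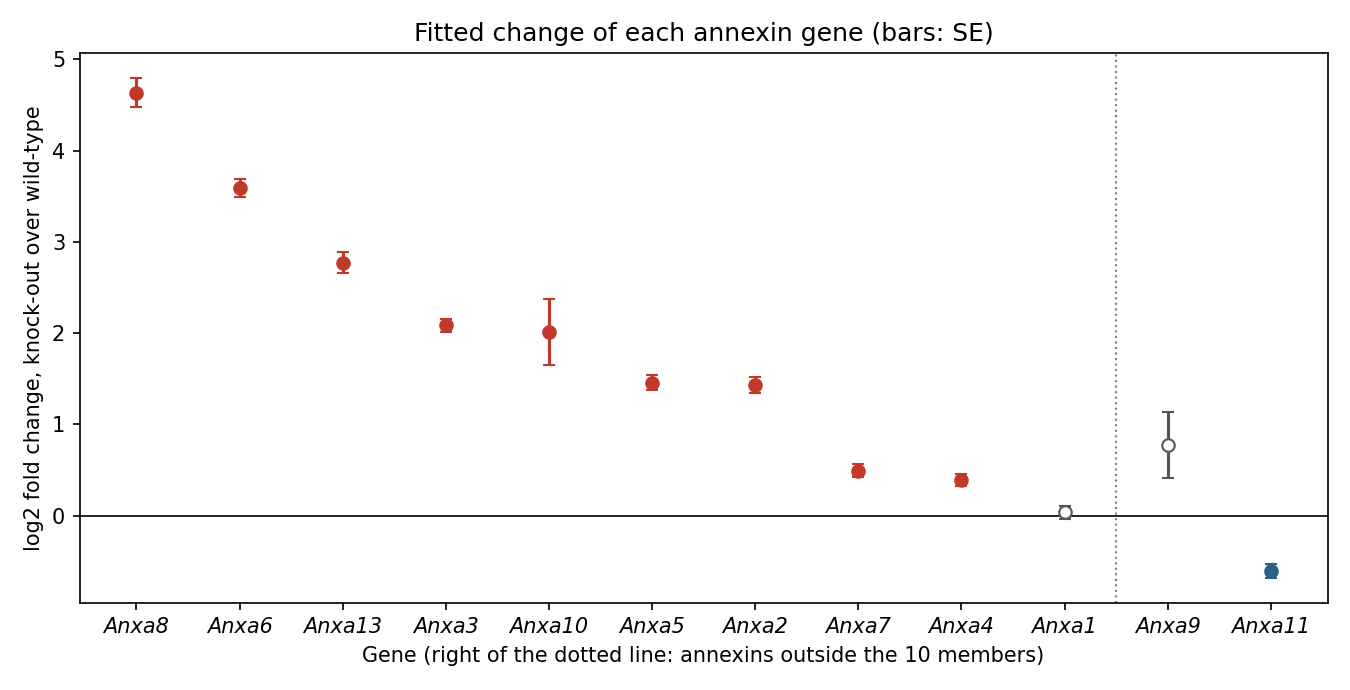
Fitted log2 fold change of each annexin gene, knock-out over wild-type, with bars for the standard error of the fit over 3 libraries each. Filled red points passed the test and were higher in knock-out tumoroids, the filled blue point was lower, and open points were not called. The changes run downward in size from 4.64 for Anxa8 to 0.04 for Anxa1, with Anxa9 and Anxa11 to the right of the dotted line.

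**Figure D2:**
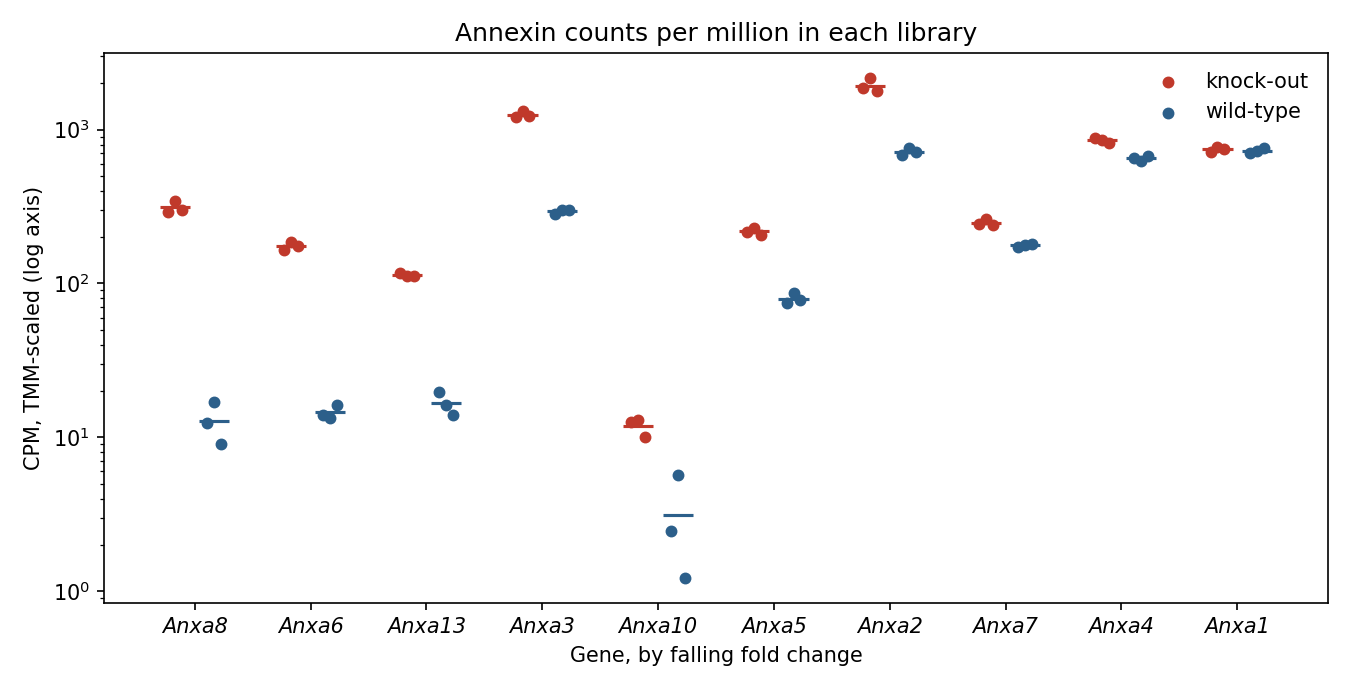
TMM-scaled CPM of each annexin in every library on a log axis, knock-out (red) left of wild-type (blue), ordered by falling fold change, with lines for the means of 3. The groups overlap for Anxa1, and the wild-type libraries are most spread for Anxa10.

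The promoter sequences of 5 members are shown for their motifs, as the 250 bases before the RefSeq transcript start (GRCm38.p6, each printed 5′ to 3′ on the gene's own strand). RefSeq entries were matched for 7 of the 10 genes and not for Anxa3, Anxa6 and Anxa13. RefSeq starts can differ from the gene coordinates given below, which came from GENCODE. The Anxa1 window lies wholly inside the GENCODE span of this gene, which begins at 20390944 on the minus strand. The Anxa2 window runs past the GENCODE start at 69453620. Capitals mark matches, on either strand, to TATAAA (the TATA box), TGANTCA (the AP-1 site, which reads the same on both strands), GGAATG (the TEAD site) and the kappaB consensus, none of which overlap here. Anxa8 had the largest rise, Anxa2 is the most abundant member in knock-out tumoroids, Anxa10 and Anxa4 carry matches, and Anxa1 is the member that was not called.
Anxa8 promoter, chr14:34085729-34085978, plus strand: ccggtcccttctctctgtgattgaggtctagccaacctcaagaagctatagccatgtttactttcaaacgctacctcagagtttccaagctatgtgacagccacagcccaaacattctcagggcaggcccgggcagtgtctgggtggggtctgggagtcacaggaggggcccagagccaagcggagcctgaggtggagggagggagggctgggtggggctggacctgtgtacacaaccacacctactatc
Anxa2 promoter, chr9:69453433-69453682, plus strand: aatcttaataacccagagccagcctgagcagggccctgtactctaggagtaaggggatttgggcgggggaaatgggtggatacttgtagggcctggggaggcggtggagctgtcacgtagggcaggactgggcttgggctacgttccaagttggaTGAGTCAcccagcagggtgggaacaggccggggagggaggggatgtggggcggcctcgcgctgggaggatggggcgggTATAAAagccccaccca
Anxa10 promoter, chr8:62123194-62123443, minus strand: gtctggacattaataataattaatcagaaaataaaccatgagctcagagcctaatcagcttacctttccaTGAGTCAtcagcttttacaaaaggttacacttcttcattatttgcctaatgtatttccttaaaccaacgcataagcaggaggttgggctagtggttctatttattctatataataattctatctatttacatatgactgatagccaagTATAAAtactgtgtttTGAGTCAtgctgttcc
Anxa4 promoter, chr6:86793585-86793834, minus strand: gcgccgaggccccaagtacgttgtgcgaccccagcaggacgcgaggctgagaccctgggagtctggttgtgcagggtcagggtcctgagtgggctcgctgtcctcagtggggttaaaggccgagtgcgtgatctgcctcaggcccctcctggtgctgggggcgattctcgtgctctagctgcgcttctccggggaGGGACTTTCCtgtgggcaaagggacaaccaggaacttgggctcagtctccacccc
Anxa1 promoter, chr19:20390672-20390921, minus strand: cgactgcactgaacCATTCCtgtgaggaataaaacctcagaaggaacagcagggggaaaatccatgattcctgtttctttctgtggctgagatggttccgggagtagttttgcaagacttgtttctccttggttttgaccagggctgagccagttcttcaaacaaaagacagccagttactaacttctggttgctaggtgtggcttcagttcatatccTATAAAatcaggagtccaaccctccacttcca

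TATAAA began 17 bases before the start in Anxa2 and 32 bases before it in both Anxa10 and Anxa1, and 12.4% of the 32851 promoters of the same length held it. TGANTCA began 95 bases before the start of Anxa2 and 180 and 16 bases before that of Anxa10, against 6.75% of all promoters with at least 1 match. GGAATG was found in Anxa1, on the other strand at 236 bases, and in 12.6% of all promoters. The kappaB consensus, the element bound by NF-kB, was matched 55 bases before an Anxa4 start, against 3.90% of all promoters. The promoter of another Anxa4 start, chr6:86775115-86775364, is not printed and held none of these motifs. Anxa8, Anxa5 and Anxa7 held none of these letters in this window. These matches describe the sequence and are not evidence of binding.

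Anxa2 (ENSMUSG00000032231, GRCm38 chr9:69453620-69491795, plus strand) encodes the annexin that, joined to S100A10, holds tissue plasminogen activator and plasminogen at the cell surface. It had 1852, 2165 and 1784 CPM in the knock-out libraries and 683, 758 and 719 CPM in the wild-type libraries. The genotypes did not overlap, and knock-out replicate 2 was the highest library. Anxa2 rose 2.69-fold (log2 fold change 1.43, SE 0.09, edgeR adjusted p = 4.42e-08). S100a10, its light chain partner, was not called. It had 258.5, 315 and 238 CPM in the knock-out libraries and 278, 299 and 323.5 CPM in the wild-type libraries, which overlapped, with a log2 fold change of -0.15 (SE 0.10, edgeR adjusted p = 0.238). Without knock-out replicate 2, which differed most from the other knock-out libraries, S100a10 was called lower, with a log2 fold change of -0.30 and an edgeR adjusted p of 0.00153. Per kilobase of exon, Anxa2 stood at 2.33 ± 0.103 times the S100a10 level in knock-out tumoroids and 0.781 ± 0.0525 times in wild-type tumoroids (SD, n = 3 each). The 3 knock-out ratios lay above the 3 wild-type ratios, and the exact two-sided permutation p was 0.1, the smallest that 3 against 3 libraries allow (0.117 after adjustment over 7 ratios).

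Other genes of plasminogen activation were higher with Anxa2: 6 of the 7 tested rose and 1 fell, against 30.4% higher and 27.0% lower among all genes tested. Their log2 fold changes had a median of 4.21. Plau, the urokinase that cleaves plasminogen to plasmin, had 136, 137 and 150 CPM in the knock-out libraries and 7.40, 8.04 and 7.54 CPM in the wild-type libraries. It rose 18.4-fold (edgeR adjusted p = 1.24e-11). Plat, the tissue plasminogen activator that annexin A2 binds, averaged 131 ± 8.81 CPM in knock-out tumoroids and 7.48 ± 0.824 CPM in wild-type tumoroids, a rise of 17.6-fold (edgeR adjusted p = 3.45e-11). The urokinase receptor gene Plaur rose 4.70-fold, to 319 ± 11.2 CPM in knock-out tumoroids, against 68.1 ± 6.29 CPM in wild-type tumoroids. Genes for inhibitors of the activators rose as well: Serpinb2 had 3458 counts in knock-out tumoroids and 3 in wild-type tumoroids, and Serpine2 averaged 8.14 ± 2.85 CPM in knock-out tumoroids and 0.299 ± 0.0925 CPM in wild-type tumoroids. The gene that fell was Plgrkt, a plasminogen receptor named after its value was seen, at 23.6 ± 2.95 CPM in knock-out tumoroids and 33.2 ± 2.45 CPM in wild-type tumoroids (edgeR adjusted p = 0.00326). Plg, plasminogen itself, had 0 counts in all 6 libraries, and Serpinf2, with 6 counts in knock-out tumoroids and 3 in wild-type tumoroids, was not tested.

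**Figure D3:**
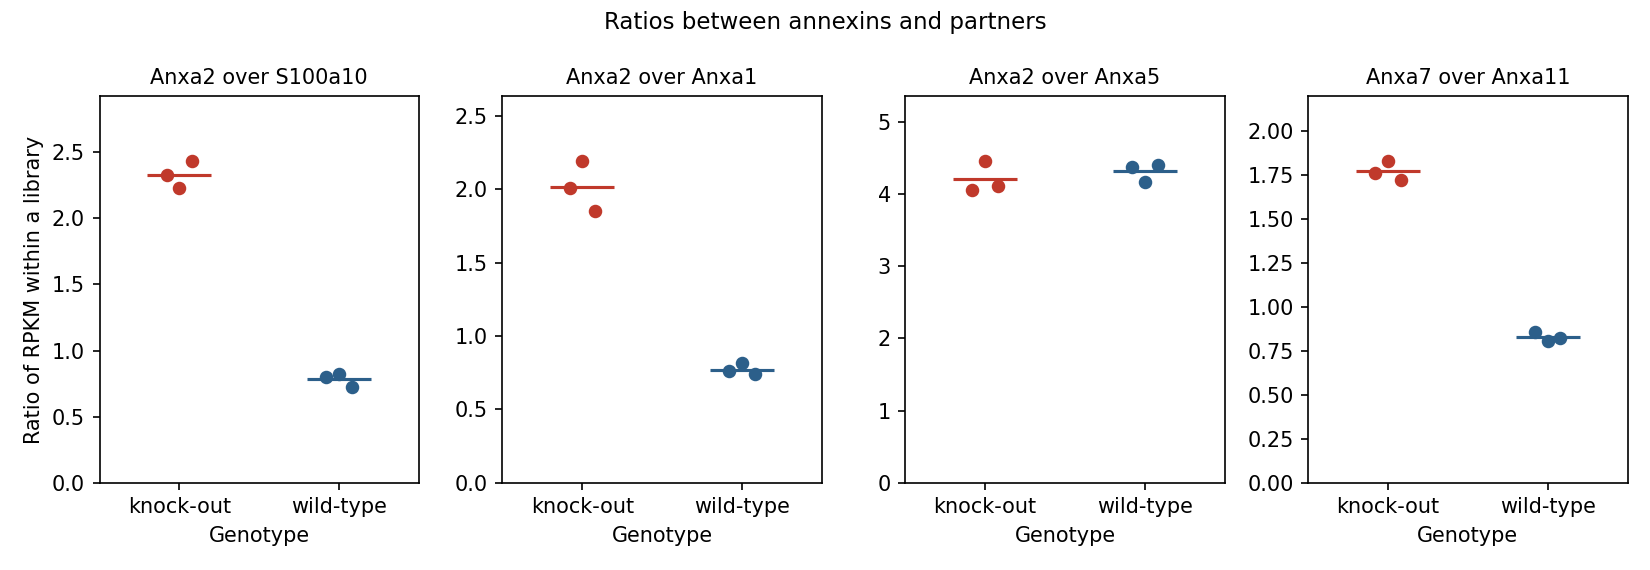
Ratio of the levels of 2 genes within each library, each level in CPM per kilobase of exon (RPKM), for knock-out (red) and wild-type (blue) libraries. Points are libraries and lines are means of 3. Anxa2 over S100a10 and Anxa2 over Anxa1 were higher in every knock-out library, while Anxa2 over Anxa5 lay between 4.07 and 4.47 in knock-out tumoroids and between 4.17 and 4.41 in wild-type tumoroids.

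Anxa1 (ENSMUSG00000024659, chr19:20373428-20390944, minus strand) encodes the glucocorticoid-induced annexin that restrains phospholipase A2 and, once released, acts on formyl peptide receptors. It had 719, 769.6 and 751 CPM in the knock-out libraries and 702.5, 727 and 757 CPM in the wild-type libraries. The groups overlapped, and the fold was 1.03 with a 95% interval of 0.922 to 1.14 (log2 fold change 0.04, SE 0.07, edgeR adjusted p = 0.694). The sign turned to -0.02 on the log2 scale with upper quartile scaling and to -0.01 without knock-out replicate 2. S100a11, which binds the tail of annexin A1, rose 1.35-fold (edgeR adjusted p = 0.00127), at 495 ± 55.9 CPM in knock-out tumoroids and 368 ± 20.5 CPM in wild-type tumoroids. The per-length ratio of Anxa1 to S100a11 was 0.266 ± 0.0218 in knock-out tumoroids and 0.348 ± 0.00651 in wild-type tumoroids (SD, n = 3 each), with no overlap and an exact permutation p of 0.1.

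Of the genes around annexin A1, 5 were tested, of which 2 rose, 1 fell and 2 were not called, with a median log2 fold change of 0.18. Over all genes tested, 30.4% were higher and 27.0% lower. Pla2g4a, the cytosolic phospholipase A2 that releases arachidonic acid, rose 7.59-fold, to 149 ± 20.4 CPM in knock-out tumoroids, against 19.6 ± 1.92 CPM in wild-type tumoroids (edgeR adjusted p = 1.19e-09). Among glucocorticoid target genes, Fkbp5 rose 1.46-fold (edgeR adjusted p = 0.00124) and the X-linked Tsc22d3 fell, at 4.78 ± 1.05 CPM in knock-out tumoroids and 13.6 ± 0.671 CPM in wild-type tumoroids (edgeR adjusted p = 1.6e-05). The glucocorticoid receptor gene Nr3c1 and the annexin A1 kinase gene Trpm7 had log2 fold changes of 0.18 and 0.06, with edgeR adjusted p-values of 0.339 and 0.72. The receptors were at or near 0: Fpr1 and Fpr3 had 0 counts in all libraries and Fpr2 had 5 counts in knock-out tumoroids and 0 in wild-type tumoroids.

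Anxa5, Anxa6 and Anxa4 belong to the annexins that gather at torn or phosphatidylserine-bearing membrane. Anxa5 (ENSMUSG00000027712, chr3:36448923-36475894, minus strand), whose protein forms lattices on phosphatidylserine, had 217, 231 and 206 CPM in the knock-out libraries and 74.2, 86.6 and 77.7 CPM in the wild-type libraries. All knock-out libraries were above all wild-type libraries, a 2.75-fold rise (log2 fold change 1.46, SE 0.08, edgeR adjusted p = 2.34e-08). The per-length ratio of Anxa2 to Anxa5 was 4.22 ± 0.217 in knock-out tumoroids and 4.32 ± 0.133 in wild-type tumoroids (SD, n = 3 each), overlapping, with an exact permutation p of 0.6. Anxa6 (ENSMUSG00000018340, chr11:54979108-55033445, minus strand) encodes the member with a duplicated core, found on endosomes and at repair caps. It had 165, 185 and 176 CPM in the knock-out libraries and 14.1, 13.4 and 16.1 CPM in the wild-type libraries. The groups were far apart and each was tight, with a 12.0-fold rise (log2 fold change 3.59, SE 0.10, edgeR adjusted p = 4.15e-11). Anxa4 (ENSMUSG00000029994, chr6:86736840-86793584, minus strand), an annexin of secretory epithelia, had 876, 854 and 823 CPM in the knock-out libraries and 649.5, 624 and 674 CPM in the wild-type libraries. The groups did not overlap although the rise was 1.31-fold (log2 fold change 0.39, SE 0.07, edgeR adjusted p = 0.000421).

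The list of plasma membrane repair genes showed the same direction, with 11 of 15 tested genes higher, 0 lower (1 without knock-out replicate 2) and 4 not called. The share over all genes tested was 30.4% higher and 27.0% lower. The list had a median log2 fold change of 0.96. Caveola genes rose the most. Cav1, the caveolin that coats caveolae, averaged 892 ± 105 CPM in knock-out tumoroids and 4.71 ± 2.72 CPM in wild-type tumoroids. Ehd2, the ATPase at the caveola neck, rose 65.9-fold and Cavin1, the caveola coat protein, 6.16-fold. Myof, the ferlin myoferlin, rose 3.34-fold, to 926 ± 129 CPM in knock-out tumoroids, against 277 ± 18.3 CPM in wild-type tumoroids. The calpain genes Capn2 and Capns1, whose protease trims repair proteins including annexins, rose 1.97-fold and 2.11-fold. For these 6 genes the edgeR adjusted p ranged from 7.53e-12 for Ehd2 to 4.34e-07 for Capns1. The 4 genes not called, named after their values were seen, were Chmp4b, Chmp4c, Vps4a and Vps4b. Their log2 fold changes were -0.07, 0.24, -0.04 and 0.16. Dysf, the repair ferlin of muscle, had 15 counts in knock-out tumoroids and 0 in wild-type tumoroids and was not tested.

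Anxa8 (ENSMUSG00000021950, chr14:34085981-34100571, plus strand), whose protein binds late endosomes and is known from stratified epithelia, rose the most of the 10. It had 292, 345 and 299.7 CPM in the knock-out libraries and 12.3, 16.85 and 9.10 CPM in the wild-type libraries. The lowest knock-out library was far above the highest wild-type library, a 24.9-fold rise (log2 fold change 4.64, SE 0.16, edgeR adjusted p = 2.88e-10). Squamous epithelial markers moved with it: 9 of 9 tested were higher, against 30.4% of all genes tested. The 11 genes of that list summed to 3320 to 4154 CPM in knock-out tumoroids and 284 to 334 CPM in wild-type tumoroids. The basal cell factor Trp63 had 2 counts in knock-out tumoroids and 5 in wild-type tumoroids, and the part of these cells in the Anxa8 result was not tested.

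Anxa3 (ENSMUSG00000029484, chr5:96793339-96845966, plus strand) encodes a phospholipase A2-inhibiting annexin of neutrophil granules and epithelia. It had 1206, 1315 and 1223 CPM in the knock-out libraries and 282, 299.5 and 301 CPM in the wild-type libraries. The groups did not overlap, and the rise was 4.24-fold (SE 0.07 on the log2 scale, edgeR adjusted p = 3.1e-10). Genes on chromosome 5 were shifted upward in knock-out tumoroids, with a median log2 fold change 0.43 above the other autosomes and 58.7% of its 685 genes higher. The nearest tested neighbours of Anxa3 with a mean of at least 5 CPM were Mrpl1 and Bmp2k, with log2 fold changes of 0.02 and 0.11 (edgeR adjusted p = 0.901 and 0.486), and 0 of the 3 such genes within 1 Mb were called. The part of the chromosome 5 shift in the Anxa3 value was not tested.

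Anxa10 (ENSMUSG00000031635, chr8:62057042-62123150, minus strand), known in human tissue as an annexin of gastric epithelium, was the scarcest member. It had 12.5, 12.9 and 10.03 CPM in the knock-out libraries and 2.44, 5.71 and 1.225 CPM in the wild-type libraries. The groups did not overlap but the wild-type libraries were spread, and the 4.03-fold rise had the widest error of the 10 (log2 fold change 2.01, SE 0.36, edgeR adjusted p = 0.000262). Without wild-type replicate 2 the rise was 6.33-fold. Gastric markers moved the same way, with 4 of 5 tested genes higher, against 30.4% of all genes tested. The 10 genes of that list summed to 637 to 730.3 CPM in knock-out tumoroids and 26.2 to 33.2 CPM in wild-type tumoroids. Of the defining genes, Gkn2, Muc6 and Sox2 had 0 counts in all libraries, and the part of gastric-type cells in the Anxa10 result was not tested.

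Anxa13 (ENSMUSG00000055114, chr15:58341471-58389244, minus strand, listed as a processed transcript in GENCODE) is the intestinal annexin, a myristoylated protein known in kidney and gut epithelial cells for delivery to the apical membrane. It had 117, 112 and 112 CPM in the knock-out libraries and 19.6, 16.3 and 13.9 CPM in the wild-type libraries. The groups were well separated, a 6.82-fold rise (log2 fold change 2.77, SE 0.12, edgeR adjusted p = 1.2e-09). Enterocyte markers moved the other way: 6 of 7 tested were lower, against 27.0% of all genes tested. The 10 genes of that list summed to 16.5 to 18.5 CPM in knock-out tumoroids and 388 to 408 CPM in wild-type tumoroids. Fabp1 and Apoa4 were at 0 counts in all libraries. Of 9 tested apical delivery genes, 4 rose and 5 fell, against 30.4% higher and 27.0% lower among all genes tested. Their log2 fold changes had a median of -0.25, and Vamp7 was not analysed here. Mal, a raft protein of apical transport, rose 13.3-fold, to 599.8 ± 24.6 CPM in knock-out tumoroids, against 45.4 ± 7.94 CPM in wild-type tumoroids. Its relative Mal2 fell, at 131 ± 11.2 CPM in knock-out tumoroids and 269.9 ± 11.6 CPM in wild-type tumoroids. Rab11a, the recycling endosome GTPase, rose by 0.59 and Nedd4, a ubiquitin ligase that binds annexin A13, by 0.46 on the log2 scale. Lgals4, a galectin of apical rafts, and Myo5b, the motor that works with Rab11a, had log2 fold changes of -0.75 and -0.57 and both fell. For these 6 genes the edgeR adjusted p ranged from 8.21e-11 for Mal to 0.00189 for Nedd4.

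Anxa7 (ENSMUSG00000021814, chr14:20455260-20480133, minus strand) encodes synexin, which promotes fusion of secretory granules. It had 244, 263 and 239.8 CPM in the knock-out libraries and 173, 177 and 180.5 CPM in the wild-type libraries. The groups did not overlap, with a 1.40-fold rise (log2 fold change 0.49, SE 0.07, edgeR adjusted p = 8.63e-05). Anxa11, which shares a long tail with Anxa7 and is no member of the 10, fell: it averaged 96.9 ± 1.87 CPM in knock-out tumoroids and 147.5 ± 6.73 CPM in wild-type tumoroids (log2 fold change -0.61, edgeR adjusted p = 2.02e-05). The per-length ratio of Anxa7 to Anxa11 was 1.77 ± 0.0558 in knock-out tumoroids and 0.829 ± 0.0237 in wild-type tumoroids (SD, n = 3 each), without overlap and with an exact permutation p of 0.1. Anxa9, the other annexin outside the 10, averaged 2.94 ± 0.426 CPM in knock-out tumoroids and 1.66 ± 0.895 CPM in wild-type tumoroids and was not called (log2 fold change 0.78, edgeR adjusted p = 0.0825). It was called higher without wild-type replicate 1, at 2.57-fold (edgeR adjusted p = 0.0129), and its exons overlap those of Mindy1 by 71 bases on the other strand and those of 6330562C20Rik by 94 bases on the same strand. Anxa9 itself had 262 counts in knock-out tumoroids and 133 in wild-type tumoroids, and 6330562C20Rik had 69 counts in knock-out tumoroids and 37 in wild-type tumoroids. Mindy1 had 12085 counts in knock-out tumoroids and 3857 in wild-type tumoroids. The part of these overlaps in the Anxa9 value was not tested.

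Known binding partners of annexins were mostly higher, with 6 of 8 tested called higher, 1 lower and 1 not called, and a median log2 fold change of 0.95. By comparison, 30.4% of all genes tested were higher and 27.0% lower. S100a6 had 2624, 3258 and 2793 CPM in the knock-out libraries and 627, 683 and 661 CPM in the wild-type libraries. Its protein binds several annexins, and it rose 4.40-fold (edgeR adjusted p = 1.82e-09). Ahnak, the giant scaffold bound by annexin A2 with S100A10, averaged 1459 ± 254.5 CPM in knock-out tumoroids and 428.5 ± 43.5 CPM in wild-type tumoroids (edgeR adjusted p = 1.4e-07). S100a1 rose 2.15-fold and Pdcd6, the penta-EF-hand protein that binds annexins A7 and A11, 1.75-fold (edgeR adjusted p = 0.000288 and 1e-06). S100a4 had 86, 84 and 88 counts in the knock-out libraries and 28, 3 and 1 in the wild-type libraries. Its 6.95-fold rise (edgeR adjusted p = 0.000563) was 32.6-fold without wild-type replicate 1 and 13.3-fold with limma voom. Sri, the sorcin gene whose protein binds annexin A7, fell, at 191 ± 12.8 CPM in knock-out tumoroids and 267 ± 7.14 CPM in wild-type tumoroids (edgeR adjusted p = 0.000145). S100b, with 28 counts in knock-out tumoroids and 0 in wild-type tumoroids, was not tested.

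**Figure D4:**
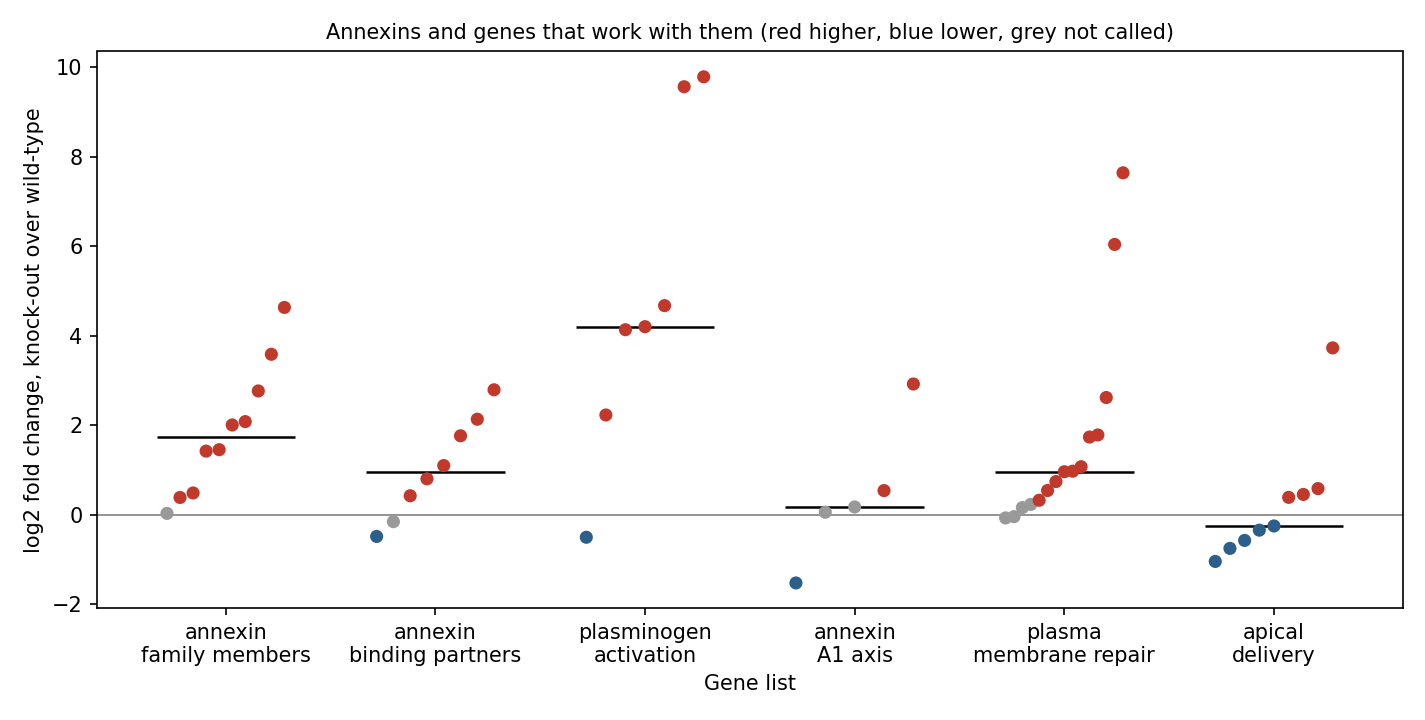
Fitted log2 fold change, knock-out over wild-type, for each tested gene of the annexin family and of 5 lists of genes that work with annexins, with red points higher, blue points lower and grey points not called. Horizontal lines are list medians, which run from -0.25 for apical delivery to 4.21 for plasminogen activation, with 1.73 for the annexins.

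As a whole, the 10 annexins took 0.585 ± 0.0336% of all counts in knock-out tumoroids and 0.270 ± 0.00721% in wild-type tumoroids (SD, n = 3 each), a difference of 0.315 percentage points. Mitochondrial genes took 2.61 ± 0.738% of counts in knock-out tumoroids and 7.06 ± 0.769% in wild-type tumoroids, and with these genes left out of the total the difference in annexin share was 0.310 points. Per kilobase of exon, the summed annexin level was 1780 ± 103 RPKM in knock-out tumoroids and 763 ± 21.1 RPKM in wild-type tumoroids.

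The order of the genes by level changed with genotype. In knock-out tumoroids the levels were 518 RPKM for Anxa2, 343 for Anxa3, 256.5 for Anxa1, 183 for Anxa4, 166 for Anxa8, 123 for Anxa5, 84.4 for Anxa13, 59.9 for Anxa6, 41.5 for Anxa7 and 5.16 for Anxa10. Neighbours in that order were separate in all libraries except Anxa4 and Anxa8, which overlapped. In wild-type tumoroids the levels were 250.3 RPKM for Anxa1, 193 for Anxa2, 139.7 for Anxa4, 80.8 for Anxa3, 44.7 for Anxa5, 29.5 for Anxa7, 12.3 for Anxa13, 6.79 for Anxa8, 4.96 for Anxa6 and 1.36 for Anxa10. There Anxa8 and Anxa6 overlapped and the other neighbours did not. This order and the shares below rest on the length used, all annotated exon bases of a gene (2911 for Anxa1, 3731 for Anxa2). In CPM, without division by length, Anxa1 (702.5 to 757) and Anxa2 (683 to 758) overlapped in wild-type tumoroids. In knock-out tumoroids, Anxa4 (823 to 876 CPM) lay above Anxa1 (719 to 769.6 CPM). Per length, Anxa1 led the wild-type order and stood in place 3 in knock-out tumoroids. It had 14.4 ± 0.583% of the summed annexin RPKM in knock-out tumoroids and 32.8 ± 0.686% in wild-type tumoroids. Anxa8 gained the most in proportion, with 9.32 ± 0.342% in knock-out tumoroids and 0.889 ± 0.266% in wild-type tumoroids. Anxa3 had 19.2% in knock-out tumoroids and 10.6% in wild-type tumoroids. Anxa4 had 10.3% in knock-out tumoroids and 18.3% in wild-type tumoroids, a smaller share although its level rose. Anxa2 held 29.1 ± 1.36% in knock-out tumoroids and 25.3 ± 0.798% in wild-type tumoroids, without overlap. Relative to Anxa1, the per-length level was 2.02 ± 0.171 for Anxa2 in knock-out tumoroids and 0.771 ± 0.038 in wild-type tumoroids (SD, n = 3 each). For Anxa3 this ratio was 1.34 ± 0.0318 in knock-out tumoroids and 0.323 ± 0.00597 in wild-type tumoroids, and for Anxa8 it was 0.647 ± 0.0413 in knock-out tumoroids and 0.0272 ± 0.00865 in wild-type tumoroids. The genotypes did not overlap in any of these 3 ratios, each with an exact permutation p of 0.1.

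**Figure D5:**
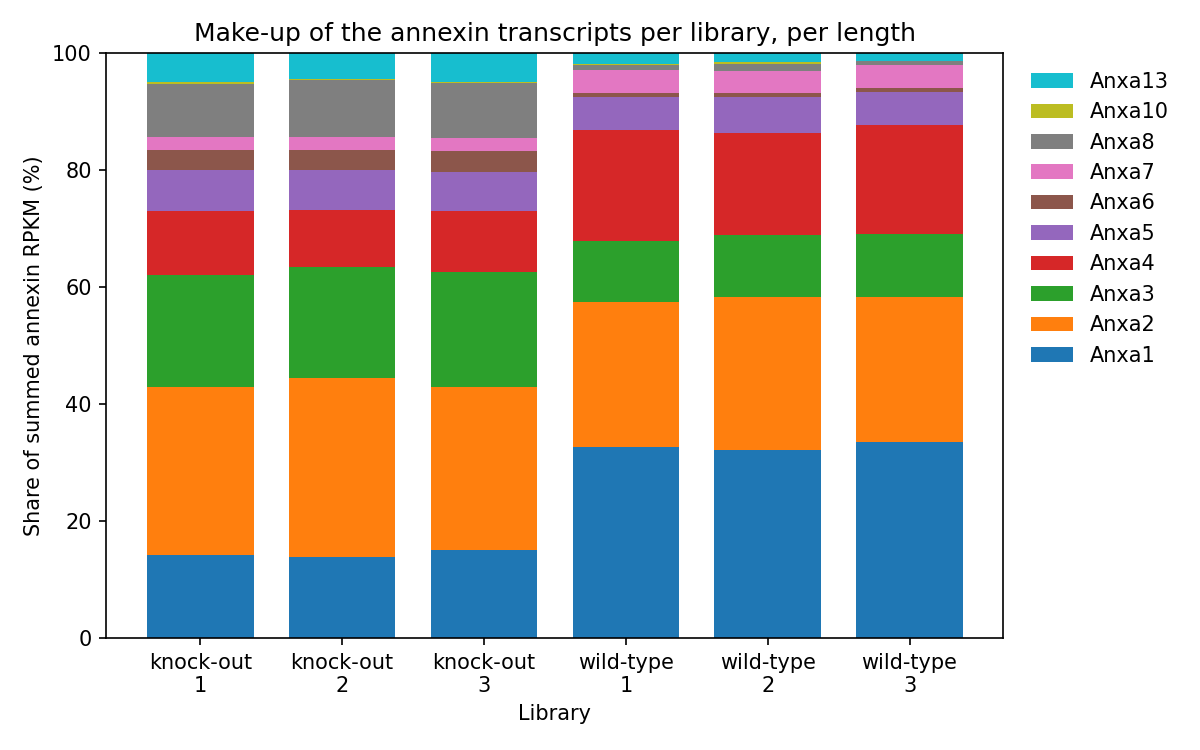
Share of each annexin in the summed annexin RPKM of a library, in percent, for the 3 knock-out and the 3 wild-type libraries. Anxa1 fills 13.9 to 15.1% of the knock-out bars and 32.2 to 33.5% of the wild-type bars, and Anxa8 fills 8.99 to 9.67% of the knock-out bars and 0.624 to 1.16% of the wild-type bars.

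Reads that another gene could share were looked for among the annotated transcripts. The search kept matches at 95% identity or more over at least 50 bases, and found none to a transcript of a gene elsewhere, so the matches found were overlapping genes. Its score cut-off was stricter than these limits, so matches of about 50 bases could be missed. Gm42603 overlaps 112 exon bases of Anxa3 on the same strand and had 92 counts in knock-out tumoroids and 15 in wild-type tumoroids. Gm16144 overlaps 98 bases of Anxa2 and Gm44036 75 bases of Anxa4, both on the other strand, with 0 counts in either genotype for Gm16144 and 6 counts in knock-out tumoroids and 2 in wild-type tumoroids for Gm44036. The strand setting of the counting is not given in the sources used here.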

How the data were processed

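The authors deposited raw counts, 1 whole number per Ensembl gene and library. Libraries were stranded and polyA-selected, per the labels' protocols, and alignment used STAR and GRCm38, per the submitters' processing notes. Neither the STAR version nor the counting program, its strand setting or its annotation is given in the sources used here. Symbols, coordinates and exon lengths came from GENCODE release M21, and promoter sequences from RefSeq (GRCm38.p6).

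Genotypes were compared with edgeR 4.0.16 (R 4.3.3), using its quasi-likelihood F-test on the deposited counts, TMM scaling, the filterByExpr filter (minimum count 10, minimum total 15) and Benjamini-Hochberg adjustment over 13759 genes, with a threshold of 0.05. CPM and RPKM (per 1000 exon bases) were computed from the counts. Standard errors came from the fitted weights. Ratios were compared by an exact permutation test. Transcript identity was searched with blastn 2.17.0. The code was first tested on simulated data.

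The members and gene lists were chosen with earlier results of these data known. Named genes are the 10 annexins, Chuk, known annexin binding partners and up to 6 called genes per list by smallest adjusted p. Some items of these lists are not reported here. Marker and sex-linked genes named beside them check the samples. Replicate libraries differed by more than sampling noise (chi-square per degree of freedom 5.86 to 40.2, highest for pairs with knock-out replicate 2), so all 6 were kept as separate. Alternatives were other scalings and filters, DESeq2 1.42.0, limma 3.58.1 voom, a replicate block, an adjusted p of 0.01, leaving out chromosomes X, Y and 5 with the mitochondrial genes, and leaving out each library. The alternatives for the partner lists were added after seeing the data.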

Additional observations from a re-analysis of the deposited data

How the results depend on the processing

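Across the 16 alternatives, 9 annexins were called higher in each one that tested all 10 genes, and 8 where chromosome 5, which holds Anxa3, was left out. With 0 annexins called lower in any alternative, Anxa1 was the exception in sign: its log2 fold change was 0.04, but -0.020 with upper quartile scaling and -0.014 to 0.064 when each library was left out (negative without knock-out replicate 2), uncalled in all, with edgeR, DESeq2 or limma adjusted p-values of 0.545 to 0.948, and the cause was not tested. Calls over all genes numbered 7896, 7077 to 8899 when each library was left out and 6397 to 8527 otherwise. The difference in annexin share was 0.296 to 0.325 percentage points when each library was left out. The log2 fold change of Anxa10 was 1.62 to 2.66 when each library was left out.

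Replicate numbers did not pair the libraries: deviations of same-numbered libraries correlated at 0.108, -0.110 and -0.190. With a replicate block, 7432 genes were called, and among them 9 annexins were higher.

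Rab8a, of the apical delivery list, fell (edgeR adjusted p = 0.0243), but was not called without knock-out replicate 1 or 3 or wild-type replicate 3 (adjusted p 0.093 to 0.113), nor at a threshold of 0.01. Anxa9 was called higher with no filter (adjusted p = 0.0487). Serpinb2 and Cpne8 are given as counts because leaving out wild-type replicate 1 moved their fitted folds by more than 1.5 times. The median log2 fold change of all genes was 0.0022, and -0.05 with upper quartile scaling. Anxa10 had 73, 118 and 33 counts in wild-type replicates 1, 2 and 3, the most in the library with the fewest counts in all.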

Other observations

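Copines, another family of calcium-dependent phospholipid-binding proteins, were mixed. Of 4 tested genes 2 rose, 1 fell and 1 was not called, against 30.4% higher and 27.0% lower among all genes tested. The median log2 fold change was 0.10. Cpne3, with the highest counts of the family, fell: it averaged 166 ± 33.7 CPM in knock-out tumoroids and 272 ± 24.9 CPM in wild-type tumoroids (SD, n = 3 each; edgeR adjusted p = 0.000503). Cpne2 rose 1.88-fold, to 21.01 ± 0.968 CPM in knock-out tumoroids, against 11.2 ± 1.56 CPM in wild-type tumoroids (edgeR adjusted p = 0.000129). Cpne8 had 2684 counts in knock-out tumoroids and 2 in wild-type tumoroids.

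The genes next to the annexins gave mixed values. Within 1 Mb of Anxa8, 4 of 7 genes averaging 5 CPM or more were called higher and 1 lower, and within 1 Mb of Anxa7, on the same chromosome, 5 of 21 were higher and 7 lower. Of all such genes on that chromosome, 29.7% were higher and 31.4% lower. Around Anxa13 the window held 18 such genes, of which 2 were higher and 2 lower, and around Anxa6 it held 13, of which 4 were higher and 2 lower. The shares were 29.7% higher and 28.5% lower on the chromosome of Anxa13. For that of Anxa6 they were 30.5% higher and 28.2% lower. Gm2a, on the right of Anxa6 and an activator of ganglioside breakdown in lysosomes, rose 3.45-fold (edgeR adjusted p = 6.24e-09). Tnip1, on its left, had a log2 fold change of -0.04 (edgeR adjusted p = 0.746). These neighbours were named after their values were seen.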
